A study of Mus musculus with 12 samples.

Results

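Foxp3 encodes the forkhead transcription factor that sets the identity of regulatory T cells (Treg). Its chromatin was followed in 12 deposited lists of open regions from sorted mouse T cells. Peaks overlapping by 1 bp or more in any of the lists were joined, and the merged regions on chromosome X from 7529676 to 7645243 (mm10) were kept, that is the Foxp3 gene body from 7579676 to 7595243 with 50 kb on each side. This gave 13 regions of 76882 in the genome and 111 peaks of 496365. Of the 13 regions, 5 touched the gene body.

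In a study of bone marrow T cell subsets, open chromatin was measured by ATAC-seq, in which a transposase cuts accessible DNA. CD4 T cells of Balb/c mice formed 6 groups of 2 libraries. For the in vivo groups, 6.5TCR T cells, whose receptor is specific for HA, had been given to Aire-HA hosts, and bone marrow T cells were sorted 14 days later. Donor Tconv were unconverted transferred cells (CD45.1-CD45.2+, CD25-), and donor Treg were converted ones (CD25+LAP+). Host Tconv, titled WT and with Aire-HCO in their library names, were CD45.1+CD45.2- and CD25-. Host pTreg and host tTreg, the labels' names for the Nrp1- and Nrp1+ sorts, were CD45.1+CD45.2+ and CD25+CTLA4+. Cells called iTreg were induced in culture from wild-type Balb/c cells and sorted as CD25+LAP+. Below, regulatory libraries are the 8 of donor Treg, host pTreg, host tTreg and iTreg, and conventional libraries are the 4 of donor and host Tconv.

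No sort used Foxp3 itself, so cells without Foxp3 may be among the regulatory sorts. CD25, LAP, CTLA4 and Nrp1 were sort markers. Ages of the animals are not given in the labels, which also do not say that replicates were separate animals, so the p-values rest on a spread between these samples that may be technical. The donor and host Tconv libraries and the donor Treg libraries carry the run code BW13, host pTreg and tTreg carry DR31, and iTreg carry none. A number in the library name, whose meaning the labels do not state, was at most 17000 in the in vivo regulatory libraries and 42000 to 50000 in the others. For host and cultured regulatory cells, the cell type and the run code cannot be told apart.

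The lists held 28394 to 63207 peaks and covered 16.87 to 42.58 Mb, with the fewest in host tTreg 1 and the most in iTreg 2. In every library all 7 T cell marker genes carried a peak, as did 4 of 5 Treg genes, with Tnfrsf18 at 0. The Treg genes, which include Foxp3 itself and the genes of the sort markers CD25 and CTLA4, had 12165 to 24887 covered bp in all in regulatory and 4686 to 11250 in conventional libraries. Peaks at CD8 genes were found in 0 to 2 of 2 genes in regulatory and 2 of 2 in conventional libraries, at 0 to 884 and 777 to 1036 bp. For NK cells 0 to 1 of 2 genes carried a peak in regulatory and 0 in conventional libraries (0 to 196 and 0 bp). For myeloid cells it was 2 to 3 of 4 genes and 2 of 4 genes (300 to 3038 and 1858 to 2996 bp). The B cell genes reported had 421 to 854 bp in the in vivo regulatory libraries, 2561 to 3623 bp in iTreg and 319 to 776 bp in the conventional ones, and Pax5 had a peak in all 12. Klf1 and Epor, of erythroid cells, had peaks in all 12 libraries, with 819 to 2554 bp in regulatory and 1422 to 2183 bp in conventional ones. Ncr1 of NK cells and Csf1r of myeloid cells had no peak in any library, while Itgam and Cd14, also of myeloid cells, had one in all 12. The part of these markers in the results below was not tested.

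Foxp3 transcription is controlled by its promoter and by conserved noncoding sequences, known in order along the gene as CNS0 upstream, then CNS1, CNS2 and CNS3 inside it. CNS1 responds to TGF-beta signalling and serves Treg cells that arise outside the thymus. CNS2 holds the Treg-specific demethylated region that keeps Foxp3 on through cell division. CNS3 helps the gene to be switched on at the start, and CNS0 is bound by the genome organiser Satb1 in Treg precursors. Coordinates of these elements were not used here, so regions are named by their distance from the annotated start. From general knowledge of their distances from the start, CNS2 is usually placed near the +4 kb region and CNS3 near the +7 kb region. That placement was not tested, and CNS0 and CNS1 were not placed.

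The annotation gives Foxp3 a pair of starts, at 7579676 and 7580483 on the plus strand. Neither carried a peak in any of the 12 libraries. The 250 bases before each are printed because no library had a peak there. Those before Ppp1r3f, the upstream neighbour on the minus strand, are printed because that promoter had a peak in 12 of 12 libraries. The stretch without a peak around the Foxp3 starts was wider than these promoters, as given below. Sequences are from RefSeq (GRCm38.p6, which has the coordinates of mm10), 5′ to 3′ on the gene's strand, and capitals mark motif matches.
Foxp3, the first start, chrX:7579426-7579675, plus strand: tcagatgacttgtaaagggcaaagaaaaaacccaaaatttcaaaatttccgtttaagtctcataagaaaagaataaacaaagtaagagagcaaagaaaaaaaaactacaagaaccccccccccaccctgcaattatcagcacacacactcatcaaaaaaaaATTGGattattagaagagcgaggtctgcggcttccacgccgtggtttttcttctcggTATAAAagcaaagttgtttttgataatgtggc
Foxp3, the second start, chrX:7580233-7580482, plus strand: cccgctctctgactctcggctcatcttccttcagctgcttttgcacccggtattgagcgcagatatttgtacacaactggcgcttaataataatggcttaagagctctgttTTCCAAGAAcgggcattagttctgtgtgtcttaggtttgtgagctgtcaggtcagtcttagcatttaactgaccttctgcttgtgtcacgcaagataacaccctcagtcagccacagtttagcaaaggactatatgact
Ppp1r3f, chrX:7574282-7574531, minus strand: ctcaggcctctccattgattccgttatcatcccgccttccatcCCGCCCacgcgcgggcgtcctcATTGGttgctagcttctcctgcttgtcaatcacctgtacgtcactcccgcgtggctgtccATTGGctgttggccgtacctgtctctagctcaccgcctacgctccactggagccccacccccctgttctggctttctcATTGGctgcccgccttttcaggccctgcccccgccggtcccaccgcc

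Capitals before the first Foxp3 start are a CCAAT box, read on the reverse strand, and a TATA box. Before the second they are a STAT motif. The Ppp1r3f sequence has 3 CCAAT boxes and 1 GC box, all read on the reverse strand. Both strands were searched for 8 motifs, and the matches in these 3 sequences do not overlap. Of 32851 promoter windows of 250 bases, 12.4% held the TATA box TATAAA, 33.8% the CCAAT box CCAAT, 32.7% the GC box GGGCGG and 7.02% the STAT motif TTCNNNGAA. The other motifs searched were AP-1 TGANTCA (6.75%), RUNX TGTGGT (14%), forkhead TGTTTAC (3.17%) and CRE TGACGTCA (1.55%). A match describes the letters and is no evidence of binding.

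The Foxp3 sequences had 37.6% and 46% G and C bases with 6 and 7 CpG sites, against 63.2% and 17 for Ppp1r3f. Among all promoter windows, here with 50 bases after the start included for peaks, 32.7% had a peak in all 12 libraries (median 61.6% G and C, 18 CpG sites), 56.7% in none (47.2%, 3 sites) and 10.6% in some. Both Foxp3 starts thus belonged to the commoner class without a peak. The nearest peak lay 4247 to 4519 bp to the left of the first start and 3120 to 6831 bp to its right. The starts of Ppp1r3f, Flicr, Ccdc22, Syp, Il2ra, Ctla4 and Cd3e had peaks in 12 libraries, and those of Cacna1f and Tnfrsf18 in none. A missing peak does not show closed chromatin, because read numbers are unknown.

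The 13 regions are accounted for from left to right. At -23 kb a region outside genes (7556336-7556654) had peaks in 10 libraries. In Ppp1r3f, which encodes a regulatory subunit of protein phosphatase 1, lay the -13 kb region (7565125-7568233, all 12 libraries) and a -9 kb region (7570335-7571556) seen in host Tconv 2 alone. The -6 kb region (7571683-7575429, all 12) spans the starts of Ppp1r3f and Flicr, a long noncoding RNA gene that runs into Foxp3 and is known to lower its expression. In or at the Foxp3 body were regions at +4 kb (7582796-7585032), +7 kb (7586325-7586990), +8 kb (7587485-7587871) and +12 kb (7591689-7592000), and a 3′-end region (7592924-7596817) where the ends of Foxp3 and Ccdc22 overlap. Ccdc22, a gene of endosomal sorting, has its start in the +26 kb region (7605174-7606021, all 12). Cacna1f, which encodes a calcium channel subunit, held the +39 kb region (7617810-7618808, all 12) and a +44 kb region (7623427-7623659, donor Tconv 1 and both iTreg). Syp, which encodes synaptophysin, has its start in the +59 kb region (7638353-7638904, all 12). The pseudogene Gm14395 and the snoRNA gene Gm23082 had no peak. The table used gives gene ends only, so exons and introns are not named.

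**Figure D1:**
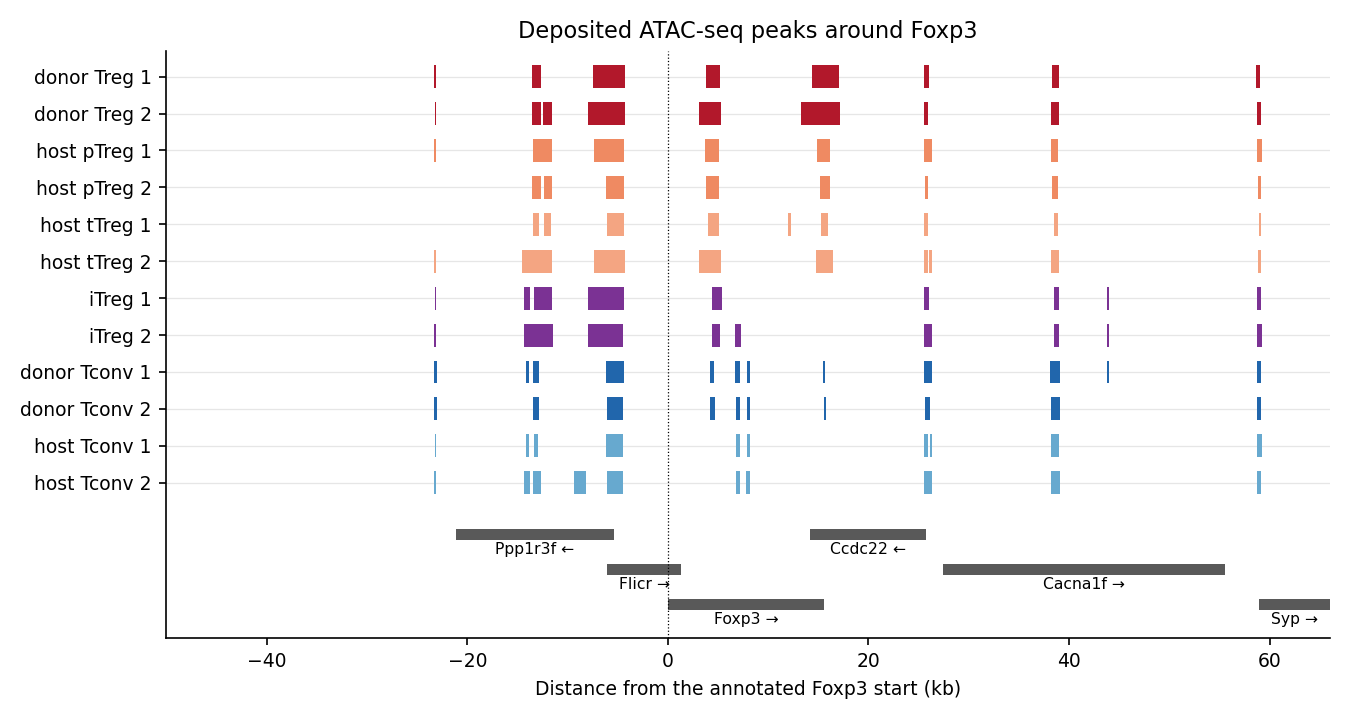
Peaks of the 12 libraries across the Foxp3 gene and 50 kb on each side, by distance from the first annotated start in kb, with 1 row a library and the genes of the window drawn beside them. Of the 13 regions, 5 are filled in all rows, while those inside Foxp3 are filled in some rows only.

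Presence of a peak was compared between the 8 regulatory and 4 conventional libraries with Fisher's exact test (two-sided), one test a region. The p-values were adjusted by Benjamini and Hochberg's method over the 18887 regions of the genome able to reach an unadjusted p under 0.05. Of 4 Foxp3-locus regions that could be tested so, 1 was called, the +8 kb region, with a peak in 4 of 4 conventional and 0 of 8 regulatory libraries (Fisher's exact test p = 0.00202, adjusted 0.0317). Across the genome 1.39% of tested regions were called higher in regulatory and 4.98% higher in conventional libraries. Leaving out 1 library at a time gave adjusted p of 0.0413 to 0.0664. The call was kept without host Tconv 1, iTreg 1 or iTreg 2, and lost when any single one of the other libraries was left out. Fewer libraries raise the smallest p this test can give. It was also lost with lists cut to equal lengths, without peaks under 300 bp, with all merged regions in the adjustment (adjusted Fisher's exact p = 0.129) and with a replicate block (adjusted exact p = 0.0697). Lists were cut to their widest peaks, so that setting and the minimum width both remove narrow peaks. Peaks at +8 kb were 247 to 387 bp wide. The genome-wide calls, 263 and 941 regions, fell to 0 when any single library other than host Tconv 1, iTreg 1 and iTreg 2 was left out, with the block and with all regions in the adjustment, and were 597 and 3791 without iTreg.

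Covered length, the bp of a region that lie under peaks of a library, shows how far peaks reach. It was compared with an exact permutation test, two-sided, over the 495 splits of 8 against 4, adjusted over all 76882 regions. No region of the genome passed in either direction (0% and 0%), and the smallest p the splits allow is 0.00202. At an unadjusted p under 0.05, 3 of the 13 Foxp3-locus regions were longer in regulatory libraries (-13, -6 and +4 kb) where 2.47% were genome-wide, and 3 were shorter (+7, +8 and +39 kb) where 12.1% were.

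At +4 kb peaks were wide in regulatory libraries and short or missing in conventional ones. Donor Treg libraries covered 1422 and 2175 bp of it, host pTreg 1358 and 1287 bp, host tTreg 1102 and 2113 bp, and iTreg 921 and 832 bp. Donor Tconv covered 391 and 431 bp, and host Tconv 0 and 0 bp. Every regulatory library thus lay above every conventional one. The mean was 1401.2 ± 502.1 bp (SD, n = 8) against 205.5 ± 237.9 bp (SD, n = 4), with an exact permutation p of 0.00202 and an adjusted p of 0.0519. The difference of 1195.8 bp became 1370.7 bp without iTreg, with an adjusted exact permutation p of 0.0273, and 1293.5 bp with lists of equal length (0.0439). Within run code BW13 it was 1593 bp. Over all alternatives the adjusted p was 0.0273 to 0.251, and with any single library left out it was 0.0557 to 0.145. Presence alone gave 8 of 8 against 2 of 4 libraries (Fisher's exact p = 0.0909). That is the smallest p a region with peaks in 10 libraries can give, so presence could not be called here.

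All 10 libraries with a peak at +4 kb shared a stretch of 198 bp (7584112-7584309). To its right, peaks reached a further 447 to 661 bp in the in vivo regulatory libraries, 560 to 723 bp in iTreg and 0 to 43 bp in the conventional ones. To its left they reached 436 to 1316 bp in vivo but 0 and 74 bp in iTreg, against 193 and 190 bp in donor Tconv. The left edge of iTreg peaks, 4436 and 4362 bp after the start, lay right of all 6 in vivo regulatory libraries, at 3120 to 4000 bp. Among 6 Foxp3-locus regions with a peak in all 8 regulatory libraries, 2 showed this order (+4 and +39 kb) and 0 the reverse. Genome-wide 3.32% of such regions showed it, and 49.6% the reverse.

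**Figure D2:**
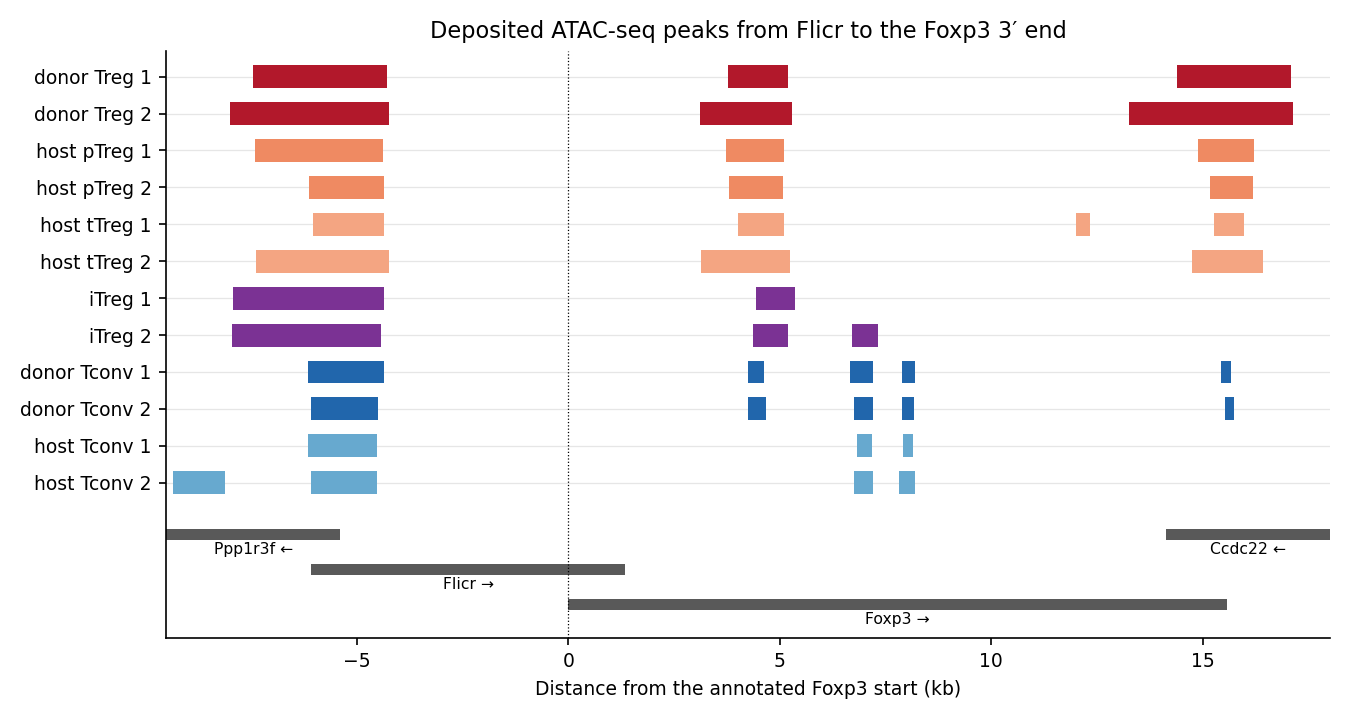
Peaks across the Foxp3 body and its flanks, 1 row a library, by distance from the first annotated start in kb. Wide bars at +4 kb are in regulatory rows, and narrow bars at +7 and +8 kb fill the 4 conventional rows, with 1 iTreg row at +7 kb.

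At +7 kb the 4 conventional libraries covered 357 to 548 bp, and of the 8 regulatory libraries only iTreg 2 had a peak, of 611 bp. Presence was 1 of 8 against 4 of 4 (Fisher's exact p = 0.0101, adjusted 0.0996), so it did not pass, and covered length gave an exact permutation p of 0.0101 (adjusted 0.147). Without the iTreg libraries it was called. At +8 kb the conventional libraries covered 247 to 387 bp and all regulatory libraries 0 bp. Both sites thus had peaks in all conventional libraries, donor and host, and in none of the in vivo regulatory libraries. At +12 kb host tTreg 1 alone had a peak, of 312 bp.

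After these values were seen, presence was also tested in 100-bp bins. Bins called higher in regulatory libraries formed 1 run of 4 (7584401-7584800, +4.72 to +5.12 kb), with a peak in 8 of 8 against 0 of 4. Bins called higher in conventional libraries formed 1 run of 2 at 7587601-7587800 (+7.92 to +8.12 kb). The adjusted Fisher's exact p was 0.0499 in both, and 0.686% and 3.37% of bins were called genome-wide. Both calls were lost when any single library was left out and with 200-bp bins. The bins in the right part of the +4 kb region thus had peaks in no conventional library, although donor Tconv had a peak next to them.

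**Figure D3:**
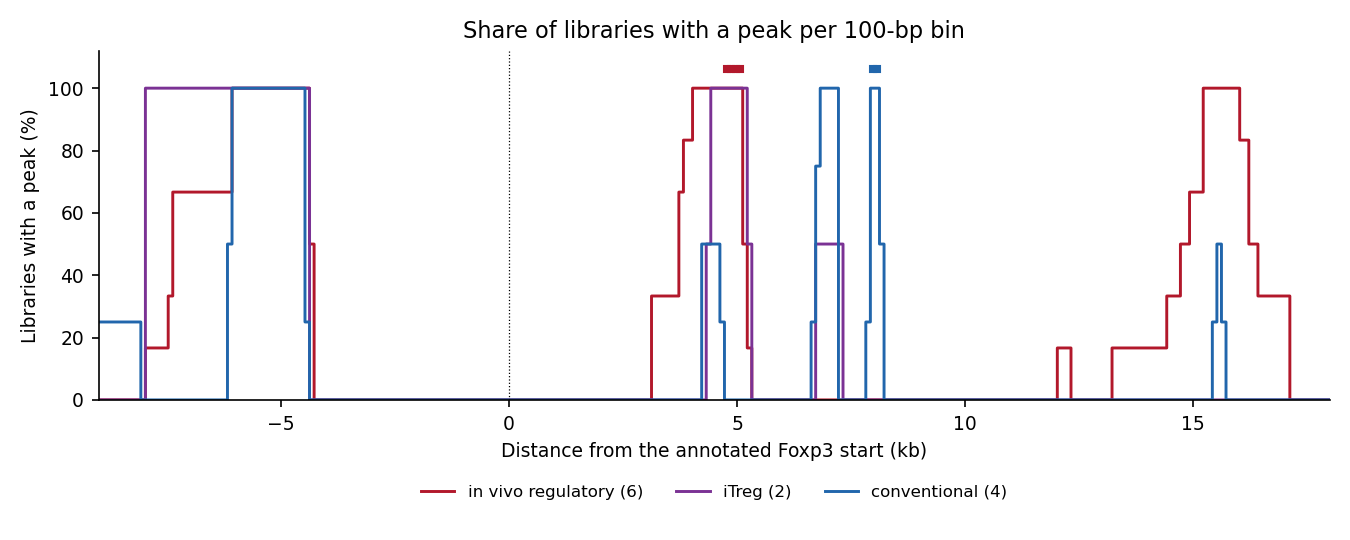
Share of libraries with a peak in each 100-bp bin in percent, by distance from the first annotated Foxp3 start in kb, for 6 in vivo regulatory, 2 iTreg and 4 conventional libraries. Short bars at the top mark the called bins, at +4.72 to +5.12 kb (8 of 8 regulatory against 0 of 4) and +7.92 to +8.12 kb (0 of 8 against 4 of 4).

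In the 3′-end region donor Treg covered 2698 and 3894 bp, host pTreg 1326 and 1020 bp and host tTreg 714 and 1679 bp. Donor Tconv covered 248 and 209 bp, and host Tconv and iTreg 0 bp in each library. All in vivo regulatory libraries thus lay above all others. Over 8 against 4 the means were 1416.4 ± 1337.4 and 114.2 ± 132.9 bp (exact permutation p = 0.0869), since both iTreg libraries were at 0. The 8 libraries with a peak shared 144 bp (7595199-7595342), which hold the annotated end of Foxp3 and part of Ccdc22.

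The -6 kb region was long in some regulatory libraries only. Donor Treg covered 3170 and 3744 bp, iTreg 3568 and 3515 bp, host pTreg 3008 and 1757 bp and host tTreg 1676 and 3140 bp, against 1809 and 1591 bp in donor and 1641 and 1555 bp in host Tconv. Host pTreg 2 and host tTreg 1, the lists with the least coverage (20.64 and 16.87 Mb), overlapped the conventional range. The mean was 2947.2 ± 798.7 against 1649 ± 112.3 bp (exact permutation p = 0.0182, adjusted 0.184). Most of the difference lay left of the Flicr start, farther upstream of Foxp3. There donor Treg covered 1380 and 1917 bp, iTreg 1856 and 1864 bp, host pTreg 1322 and 48 bp, host tTreg 0 and 1310 bp, and conventional libraries 0 to 81 bp (unadjusted exact permutation p = 0.0444). Between the starts of Flicr and Ppp1r3f all libraries covered 637 to 682 of 682 bp. In the 1148 bp right of the Ppp1r3f start, nearer to Foxp3, the means were 1058.8 ± 66.7 against 926 ± 81.6 bp (unadjusted exact permutation p = 0.0202). Ranges overlapped there, with donor Tconv 1 at 1047 bp and iTreg 2 at 969 bp.

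At -13 kb regulatory libraries covered 1966.9 ± 745.2 bp (883 to 2971) and conventional ones 909.5 ± 320.3 bp (615 to 1342), with overlapping ranges (exact permutation p = 0.0263, adjusted 0.236). At +39 kb regulatory libraries covered less, 637.6 ± 129.2 against 878.8 ± 88.9 bp (exact permutation p = 0.0121, adjusted 0.164), and the ranges of 459 to 761 and 788 to 999 bp did not overlap. The -23, +26 and +59 kb regions gave exact permutation p of 0.0707, 0.192 and 0.457.

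**Figure D4:**
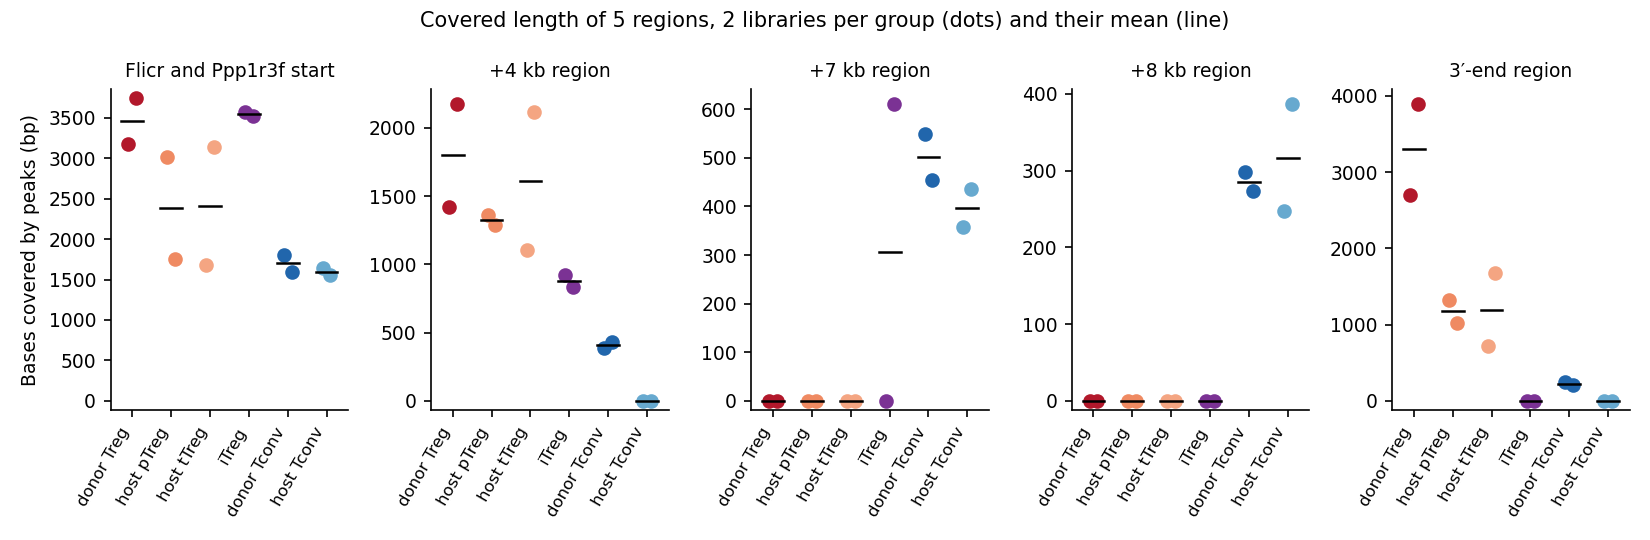
Covered length in bp by group for the -6 kb region (Flicr and Ppp1r3f start) and the +4, +7, +8 kb and 3′-end regions. Dots are libraries, 2 a group, lines their means, and the y axes differ between panels. At +4 kb the regulatory libraries lie at 832 to 2175 bp, above all conventional libraries at 0 to 431 bp.

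Over the whole Foxp3 gene body donor Treg covered 2607 and 4495 bp, host pTreg 2039 and 1677, host tTreg 1714 and 2927, iTreg 921 and 1443, donor Tconv 1386 and 1204, and host Tconv 604 and 822. Of the iTreg libraries, 1 lay within the conventional range and the other just above it. The mean was 2227.9 ± 1114.8 against 1004 ± 355.5 bp (exact permutation p = 0.0465), which did not pass over 15282 genes (adjusted 0.424). Of those genes 0% and 0% passed in the 2 directions, and 1.62% and 9.61% had an unadjusted p under 0.05. Leaving out 1 library at a time gave exact permutation p of 0.0212 to 0.127. The full window was covered by 9559.5 ± 2321.2 against 6204.8 ± 1120.9 bp (exact permutation p = 0.0242, with 0.0606 without donor Tconv 2 and 0.0727 without host Tconv 1). Total coverage of the lists gave an exact permutation p of 0.497, but this pools unlike groups. It was 16.87 to 25.75 Mb in the in vivo regulatory, 38.02 to 42.58 Mb in the iTreg and 23.43 to 33.22 Mb in the conventional lists. The pooled p thus does not show lists of equal size. Among the neighbours, the body of Ppp1r3f was covered by 3855.4 bp in regulatory and 1938 bp in conventional libraries (exact permutation p = 0.0303), that of Ccdc22 by 1484.5 and 319.5 bp (p = 0.0687) and that of Cacna1f by 682.9 and 931.5 bp (p = 0.00202). None passed over all genes.

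Donor Treg and donor Tconv share the transfer, the receptor and the run code, so they form the closest pair. With 2 libraries against 2 an exact permutation test cannot reach 0.05, and counts are given without a test. No Foxp3-locus region had a peak in both donor Treg and neither donor Tconv libraries (0 of 11; 2.41% genome-wide). The +7 and +8 kb regions had one in both donor Tconv and neither donor Treg (2 of 11; 19.9%). Of 8 regions with a peak in all 4 libraries, 3 were longer in both donor Treg libraries (-6 kb, +4 kb and 3′ end) where 5.28% were genome-wide, and 4 were shorter (-23, +26, +39 and +59 kb) where 67.4% were.

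The ratio of the smaller donor Treg to the larger donor Tconv length was computed after those values were seen. At the 3′ end it was 10.9, the highest of 27581 regions with a peak in every donor library. It was 3.3 at +4 kb, which ranked 9, and 1.75 at -6 kb, which ranked 129, against a median of 0.745. Regions without a peak in a compared library have no ratio, among them 1230 with a peak in both donor Treg and neither donor Tconv library. The 3′-end ratio rests on donor Tconv peaks of 248 and 209 bp, where the narrowest peak of each list is 150 bp. Leaving out 1 donor library at a time kept the 3′ end at rank 1, with +4 kb at ranks 4 to 26 and -6 kb at 109 to 273. Against donor Tconv the 3′ end gave 4.11 in host pTreg and 2.88 in host tTreg, and +4 kb gave 2.99 and 2.56. The -6 kb region gave 0.971 in host pTreg and 0.926 in host tTreg, where the medians of all regions were 0.722 and 0.642. In iTreg +4 kb gave 1.93 and -6 kb 1.94, where the median was 0.993 and 3.27% and 3.19% of regions had at least these ratios. These ratios share the donor Tconv libraries.

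Unconverted donor cells differed from host Tconv at both sites. The +4 kb and 3′-end regions had a peak in both donor Tconv and neither host Tconv (2 of 12; 4.4% genome-wide), and 0 the reverse (0.557%). Neither counted when peaks had to cover 30% of the region or when lists were cut to equal lengths. Donor Tconv peaks covered 17.5 and 19.3% of the merged +4 kb region and 6.4 and 5.4% of the 3′ end. Regulatory peaks set the edges of both regions, so 30% could not be met, and cut lists kept only their widest peaks. Against host Tconv, donor Treg also had these 2 regions (of 11; 4.18%) and lacked +7 and +8 kb (12.8%). Against iTreg, donor Treg had the 3′ end (1 of 10; 2.92%) and lacked the +44 kb region (34.7%), where the iTreg peaks were 212 and 150 bp wide. This count of 2 became 1 with lists of equal length or with peaks of 300 bp or more. Donor Treg and host pTreg differed at 0 of 8 regions in each direction (2.09% and 4.33%), as did host pTreg and host tTreg at 0 of 9 (3.35% and 0.452%). These pairs share libraries, and those across run codes cannot be told apart from the code.

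Genes whose covered length followed that of the Foxp3 body most closely over the 12 libraries, among 13612 protein-coding genes with peaks in at least 4 libraries, were Ccdc22 (Pearson r = 0.923), which shares the 3′-end region, Plcb4 (0.906), Thsd7b (0.901), Srsf3 (0.901) and Lrrc32 (0.863). Lrrc32 encodes GARP, which holds latent TGF-beta on Treg cells. LAP, by which donor Treg and iTreg were sorted, is part of latent TGF-beta, so Lrrc32 is not independent of the sort. All values come from the same 12 lists and no p is given. The presence pattern of the +4 kb region over the 12 libraries was shared by 186 regions of the genome, that of +7 kb by 268, +8 kb by 941, +12 kb by 38 and the 3′ end by 84.

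Regulators of Foxp3 were taken as a list of 32 genes, all found. Of their 423 regions 119 could be tested by presence, and 1 (0.84%, in Runx3, a Runt factor) was called higher in regulatory and 10 (8.4%) in conventional libraries, against the 1.39% and 4.98% above. These calls were lost wherever the genome-wide count fell to 0. The 10 lay in 8 genes, 3 of them in Foxp1, a forkhead factor of quiescent T cells, and the rest in Runx1, Foxo3, Bach2, Ikzf1, Bcl11b, Lef1 and Tet2. The median regulatory minus conventional difference in covered length of the 32 bodies was -1693.1 bp, and -48.4 bp over all genes. Both are in bp and are not scaled to how much of a gene lies under peaks. They thus cannot show a loss particular to these regulators. No body passed after adjustment in either direction.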

How the data were processed

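The 12 deposited peak lists give each peak's position, a name and a score. As deposited, the score is 1000 in every row, so only positions and widths were analysed. The tools were Bowtie2 2.3.3, HOMER 4.10 and bedtools on mm10, per the submitters' processing notes; what each did, and the read depth, were not given in the sources used here. Intervals were made 1-based. Python 3.11.15, numpy 2.4.6, pandas 2.3.3 and scipy 1.17.1 were used, and the tests were tested on simulated data. Groups came from the titles.

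All regions of the window are members. The genes named as most alike are the 5 with the highest Pearson r, and the regulators are a list of 32 genes. Members and lists were chosen with earlier results of these data known. Covered lengths of single regions were adjusted over the genome, not over the window as first planned. The bins and donor ratios were added after seeing the data. Alternatives were equal list lengths, a minimum width of 300 bp, merging within 100 bp, 30% coverage, the share of total coverage, a replicate block, BW13 alone, and leaving out iTreg or each library. For equal lengths the widest peaks of each list were kept, up to the number in the shortest list. Same-numbered libraries of different groups did not deviate together, so numbers were not taken as pairs. Some marker genes are not reported here.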

Additional observations from a re-analysis of the deposited data

Results flagged for a closer look

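Of 27 sets of 4 to 8 libraries checked, 4 held a library far from the others. Each is a single peak in a set otherwise at 0 bp, which this rule flags whatever the peak's width. The rule's chance rate of about 5% of sets is thus no yardstick for these 4. In the conventional libraries, host Tconv 2 alone covered 1222 bp of the -9 kb region and donor Tconv 1 alone 211 bp of the +44 kb region. In the regulatory libraries, iTreg 2 alone covered 611 bp of the +7 kb region and host tTreg 1 alone 312 bp of the +12 kb region.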

How the results depend on the processing

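Read depth is unknown, the lists give presence only, and 12 libraries allow no p below 0.00202. The count of Foxp3-locus regions called by presence, 1, became 2 with 30% coverage and without iTreg, and 0 with all regions in the adjustment, equal list lengths or peaks of 300 bp or more; leaving out 1 library gave 0 to 2, and BW13 alone allows no adjusted call. The donor Treg against donor Tconv count of 2 became 4 with 30% coverage. Donor Tconv peaks at +4 kb and the 3′ end were too narrow to meet 30% of the merged regions, which raised this count. At +4 kb it also raised the presence count. Single regions passing by covered length, 0, became 1 with equal list lengths, 1 as a share of total coverage and 4 without iTreg. Those 4 had the same adjusted exact permutation p, 0.0273. How many regions of the genome passed by covered length in these settings is not given here. These counts thus cannot show a change particular to Foxp3. Presence calls across the genome also rose without iTreg, from 263 and 941 to 597 and 3791. Gene body: the difference of 1223.9 bp was 2547 bp in BW13 alone (exact permutation p = 0.0667, the smallest that it allows), 61.8 as a share (bp per Mb covered, p = 0.0566), and 900 to 1410.6 bp with 1 library left out. Window: 3354.8 bp became 5303.8 bp in BW13 (exact permutation p = 0.0667), 3422.6 bp without iTreg (p = 0.0571) and 2845.8 to 3852.5 bp with 1 library left out (exact permutation p = 0.0152 to 0.0727). Called bins, 400 and 200 bp, became 0 and 0 with 200-bp bins, 1100 and 600 bp without iTreg, and 0 with any library left out. The differences that changed sign, 2 in all, were not called: +44 kb, at -31.3 to 45.2 bp with 1 library left out and positive without donor Tconv 1, and +59 kb, at 0.2 bp per Mb covered as a share. Causes were not tested.

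With a replicate block, labels exchanged only within replicate number, the presence count was 0 and the gene-body difference 1223.9 bp (exact permutation p = 0.0533). Deviations of same-numbered libraries correlated at -0.131 to 0.057 over 15 pairs of groups, so the numbers gave no sign of pairing. Both used the numbers in the titles, which differ from those in the descriptions for donor Treg and host Tconv.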

Other observations

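Ratios of covered length, donor Treg to donor Tconv, exist only for regions with a peak in every donor library. Among the 10 highest, 3 besides those of Foxp3 lay at Ctla4, Lrrc32 and Ikzf2, singled out after their values were seen. The region at the start of Ctla4 (inhibitory receptor, a sort marker of the host Treg) ranked 5 at a ratio of 4.06, with 5341 and 5701 bp in donor Treg and 1317 and 823 bp in donor Tconv. That at Lrrc32, whose product GARP holds the LAP by which donor Treg were sorted, ranked 7 at 3.67 (2424 and 2461 against 635 and 660 bp). That at Ikzf2, which encodes Helios, ranked 8 at 3.41 (1739 and 1874 against 492 and 510 bp). The remaining ones lay at Fubp3, Sp110 and Sp140, Med15, Tmprss6 and, once, in no protein-coding gene. The ratio was chosen after seeing the data and has no test.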
